A study of Mus musculus with 48 samples.

Results

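The genes described here carry the names of subunits of the oxidative phosphorylation enzymes and were measured in mouse duodenum and ileum over the first weeks of life. They were chosen by name alone, from the symbols of the deposited tables: Nduf followed by a, ab, b, c, s or v and a number, the families Cox4 to Cox8, and every symbol that begins with Uqcr, Atp5, mt-Nd, mt-Co, mt-Atp or mt-Cy, without the 9 rows named as pseudogenes. The rule found 95 of 54532 gene rows, of which 82 are nuclear and 13 lie on mitochondrial DNA. The GENCODE annotation types 2 of the nuclear rows as not coding for protein, Cox6c2 as a processed pseudogene and the row named Ndufb1 as a long noncoding RNA from a bidirectional promoter, and both are kept in the counts that follow. The nuclear genes comprised 38 of complex I, 8 of complex III, 18 of complex IV and 18 of complex V. The mitochondrial genes comprised 7 of complex I, 1 of complex III, 3 of complex IV and 2 of complex V. After a filter on low counts 77 nuclear and 13 mitochondrial genes were tested. The 5 that were not tested were Cox6a2, Cox6c2, Cox7b2, Cox8b and Cox8c, which stood at 0 CPM in between 14 and 46 of the 46 samples and never above 0.250 CPM. CPM here is the count per megacount of a library after scaling.

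The respiratory chain passes electrons from NADH through complexes I, III and IV to oxygen and pumps protons across the inner mitochondrial membrane, and complex V, the ATP synthase, uses the proton gradient to make ATP. Mitochondrial DNA encodes core membrane subunits of these complexes and the nucleus encodes all the others, so the enzymes are assembled from the products of both genomes. Absorptive enterocytes, the main cells of the villus, spend much of their ATP on the sodium pump that drives nutrient uptake.

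The series followed the small intestine of C57BL/6J mice through the age at which newborn bowel is prone to necrotizing enterocolitis. Total RNA was sequenced from short whole-thickness pieces of duodenum, taken just beyond the pylorus, and of ileum, taken just before the caecum. Groups were day 0, 2, 4, 6 and 8 and week 2, 3 and 4 after birth in each region, with 3 samples in each of the 16 groups, and no genotype or treatment separated them. All mice shared one strain, were of both sexes, stayed with the dam through the third postnatal week and then ate chow, and the labels call the housing standard germ-free. A litter usually gave more than 1 age, per the labels.

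The day 6 samples numbered 3 were left out of both regions by the rule that defined the genes, which leaves 46 samples and 2 in each day 6 group. With them kept under their labels, no member was called between regions at day 6 in edgeR, against 52 without them, where 35.3% of all genes were called. Totals ranged from 16824021 to 65042327 counts. The summed CPM of 4 ileum markers was 110 CPM in ileum week 4 sample 1, while its group also held samples with 2000 and 2303 CPM. Duodenum day 4 sample 3 had 4427 CPM of 7 red blood cell markers, against 559 and 580 CPM in its group. The 8 smooth muscle markers of these full-thickness pieces summed to between 13.7 and 62.2 CPM in the duodenum and between 18.2 and 216 CPM in the ileum. In pieces of whole tissue, fewer cells of a type and less RNA per cell cannot be told apart.

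Many nuclear genes of the chain carry sites for shared transcription factors near their start, among them nuclear respiratory factor 1 (NRF1), a regulator of respiratory genes, and the estrogen-related receptors (ERR). Since most nuclear members moved together in the comparisons that follow, their promoters were read from RefSeq (GRCm38.p6), which matched 66 nuclear symbols. In the window from 250 bases before to 50 bases after the start, on either strand, the NRF1 palindrome, set in capitals in the first 3 sequences printed here, occurred in 5 of 66 members (7.58%) and in 253 of 14071 tested genes with a promoter (1.80%). The letters AAGATGGC, part of the YY1 site, occurred in 10 members (15.2%) and in 4.34% of genes. CCGGAAGT, an ETS family site, occurred in 5 members (7.58%) and in 7.14% of genes, and TNAAGGTCA, the ERR site, in 2 members (3.03%) and in 1.03% of genes. The 66 members include Cox7b2 and Cox8b, which were not tested and held none of these letters, while the comparison genes were all tested. A match describes letters and not binding. Printed here are the 250 bases before the start of 3 members with the NRF1 palindrome, each from a different complex, and of 1 with ERR letters, chosen as examples, 5′ to 3′ on the gene's strand, with the matched letters in capitals. In Atp5g3 the match is on the opposite strand. Ndufa11 (complex I) lies at chr17:56717512-56717761 on the plus strand. Cox6a1 (complex IV) lies at chr5:115348959-115349208, Atp5k (complex V) at chr5:108434400-108434649 and Atp5g3 (complex V) at chr2:73911327-73911576, all 3 on the minus strand.
Ndufa11: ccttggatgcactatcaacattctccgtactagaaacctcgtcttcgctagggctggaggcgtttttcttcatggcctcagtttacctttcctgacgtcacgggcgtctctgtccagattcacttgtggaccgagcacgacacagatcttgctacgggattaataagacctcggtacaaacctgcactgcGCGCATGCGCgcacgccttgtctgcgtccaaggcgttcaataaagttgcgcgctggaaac
Cox6a1: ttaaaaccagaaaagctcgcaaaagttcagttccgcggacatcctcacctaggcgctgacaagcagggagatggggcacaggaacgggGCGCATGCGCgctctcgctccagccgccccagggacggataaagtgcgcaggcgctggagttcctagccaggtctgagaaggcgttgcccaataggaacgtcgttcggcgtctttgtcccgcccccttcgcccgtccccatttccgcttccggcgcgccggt
Atp5k: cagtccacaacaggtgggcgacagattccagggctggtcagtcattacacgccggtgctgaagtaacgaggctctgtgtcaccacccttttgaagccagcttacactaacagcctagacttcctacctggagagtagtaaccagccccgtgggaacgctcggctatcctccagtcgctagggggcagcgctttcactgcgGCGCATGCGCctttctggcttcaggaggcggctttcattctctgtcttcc
Atp5g3: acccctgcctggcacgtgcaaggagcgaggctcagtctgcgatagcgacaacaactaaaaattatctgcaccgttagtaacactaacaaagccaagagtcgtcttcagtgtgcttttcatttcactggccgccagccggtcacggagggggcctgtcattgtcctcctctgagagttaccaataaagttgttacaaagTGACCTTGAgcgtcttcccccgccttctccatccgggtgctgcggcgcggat

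Averaged over the 8 ages, most nuclear genes of the chain were lower in the ileum than in the duodenum, in every complex. By edgeR's quasi-likelihood test on the mean of 8 ages, 73 of 77 nuclear genes were lower in the ileum, 2 were higher and 2 did not pass, where 62.1% of all 21986 genes tested were called and 30.2% were called lower. The median log2 difference of the nuclear genes was -0.62, against 0.08 over all genes. Of the mitochondrial genes 11 of 13 were lower, with a median of -0.41. All 38 nuclear genes of complex I and all 8 of complex III were called lower, as were 10 of 13 tested in complex IV and 17 of 18 in complex V.

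The 2 largest differences in complex III belonged to Uqcrfs1, the Rieske iron-sulfur subunit, at -0.89 ± 0.07 (log2, SE, edgeR adjusted p = 6e-13), and Uqcrc2, a core subunit, at -0.80 ± 0.07 (adjusted p = 3.65e-12). At week 4 the duodenum samples held 261, 203 and 262 CPM of Uqcrfs1 and the ileum samples 178, 98.9 and 106 CPM, with no overlap. In complex I the accessory subunits Ndufa10 (-0.87 ± 0.08) and Ndufa5 (-0.86 ± 0.08) differed most, with edgeR adjusted p of 1.03e-11 and 5.16e-12. In complex V these were Atp5k, the small e subunit, at -0.83 ± 0.08 (adjusted p = 7.52e-11), and Atp5o, the stalk subunit that confers oligomycin sensitivity, at -0.81 ± 0.09 (adjusted p = 3.57e-10). A second gene row named Atp5o stood at or below 0.98 CPM in each sample and is counted separately.

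Cox6b2, a form of the complex IV subunit VIb best known from testis, went the other way, at 1.15 ± 0.11 (edgeR adjusted p = 1.12e-11). Its week 2 samples held 9.54, 9.62 and 12.0 CPM in the ileum and 3.65, 4.13 and 4.25 CPM in the duodenum, so the groups stood well apart. The ubiquitous form Cox6b1 was lower in the ileum, at -0.66 ± 0.07 (adjusted p = 5.22e-10). Cox4i2, the other gene called higher in the ileum, stood at or below 0.52 CPM in every sample. Cox7a1 did not pass, at -0.06 ± 0.10 (adjusted p = 0.661), nor did Atp5g2, at -0.48 ± 0.25 (adjusted p = 0.0937).

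The median log2 difference of the nuclear genes was below 0 at each age. Over the ages from day 0 to week 4 it was -0.36, -0.51, -0.71, -0.75, -0.60, -0.80, -0.38 and -0.78. Of the 77 nuclear genes 68 had a lower level in the ileum at all 8 ages, against 2 of 13 mitochondrial genes. In the earliest groups few genes were called, 3 lower at day 0 (6.1% of all genes called) and 23 lower and 1 higher at day 2 (8.01%). No nuclear gene was called at day 0 without duodenum sample 3 or ileum sample 1. The day 2 count of 24 was 6, 16 or 12 without duodenum sample 1, 2 or 3 and 16, 5 or 9 without ileum sample 1, 2 or 3. At day 6 the nuclear count of 51 was 15 without duodenum sample 2 and 23 or 21 without ileum sample 1 or 2. At day 8, 48 were lower and 1 higher, where 39.6% of all genes were called. At week 2, 64 nuclear genes were called lower and 1 higher in edgeR, where 22.4% of all genes were called. At week 4 again 63 were lower and 1 higher, where 28.4% of all genes were called. At week 3, 9 were lower and 1 higher, where 14.2% were called. That count fell to 0 without ileum week 3 sample 3, to 2, 3 or 5 without duodenum sample 2, 1 or 3, and to 6 without ileum sample 1.

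**Figure D1:**
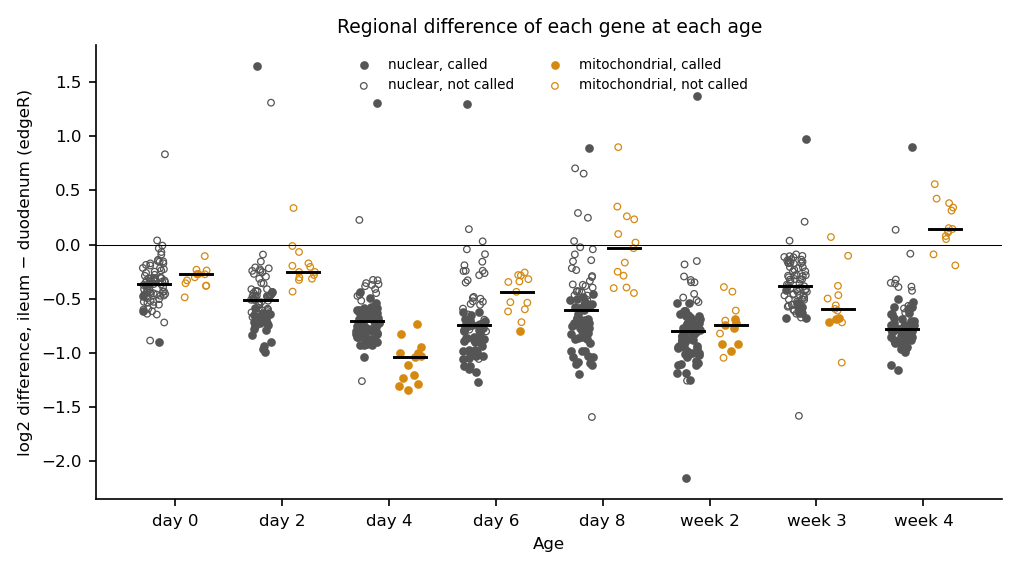
The plot gives the log2 difference of ileum minus duodenum for each tested member at each age, from edgeR. Grey points are nuclear and orange points mitochondrial genes, filled where called, and black bars are medians, with Cox4i2 (at or below 0.52 CPM) counted in the medians but not drawn. The nuclear medians lie between -0.36 and -0.80, while the mitochondrial median is -1.04 at day 4 and 0.14 at week 4.

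For the mitochondrial genes the regional difference ranged from -1.04 to 0.14 in its median. At day 4 all 13 were lower in the ileum, with a median of -1.04, where 26.6% of all genes were called. At day 6, 1 of 13 was lower, with a median of -0.44, and none without any 1 of the 4 day 6 samples. At week 2, 7 of 13 were lower, with a median of -0.74. That count was 2 without duodenum week 2 sample 3 or ileum sample 1, 3 without duodenum sample 2 or ileum sample 2, and 4 without ileum sample 3. At week 3, 3 of 13 were lower, with a median of -0.59. That count was 0 without duodenum week 3 sample 2 or 3 or ileum sample 2 or 3, and 1 without ileum sample 1. At week 4 none was called by edgeR, at an unadjusted p under 0.05 or by DESeq2, and the median was 0.14. At day 0, 2 and 8 none was called by edgeR or DESeq2 either, with medians of -0.27, -0.25 and -0.03, and an unadjusted p under 0.05 was found for 1 gene at day 8 and for none at day 0 or day 2. Without ileum day 8 sample 1, 3 were lower at day 8, and without sample 2, 1 was higher. The 61 nuclear genes called lower at day 4 rested on few samples: the nuclear count of 62 fell to 16 without duodenum day 4 sample 3, to 18 without ileum day 4 sample 1 and to 32 without ileum sample 3.

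Other cell types differed between regions as well. All 7 markers of proliferating crypt cells were lower in the ileum (median log2 difference -1.04), with summed levels from 260 to 2360 CPM in the ileum and from 510 to 7610 CPM in the duodenum. All 6 fibroblast markers were higher (median 2.05), from 81.2 to 686 CPM against 6.08 to 188 CPM. Of 8 smooth muscle markers 7 were higher in the ileum (median 1.73). Of 8 enterocyte markers 1 was higher and 3 were lower (median 0.01), summing to between 17552 and 38815 CPM in the ileum and between 11267 and 69310 CPM in the duodenum. No crypt or enterocyte marker was at 0 in any sample, and Lum was the fibroblast marker at 0 in 1 sample. Their part in the regional difference of the respiratory genes was not tested.

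Over the steps in age that were tested, the median of the nuclear genes changed most between week 2 and week 3 in the ileum, the span in which the pups come to the end of their time with the dam. In the ileum 64 of 77 nuclear genes rose and 1, Cox6b2, fell in edgeR, where 26.8% of all genes were called and 12.9% rose. The median log2 change was 0.96, against 0.03 over all genes. In the duodenum 33 rose and none fell, where 18.3% of all genes were called and 7.7% rose, with a median of 0.53 against 0.03. All 33 that rose in the duodenum were among the 64 that rose in the ileum (100% of 33 and 51.6% of 64). The summed level of the 82 nuclear genes went from 5242 ± 477 to 10601 ± 1496 CPM in the ileum and from 9409 ± 634 to 13679 ± 918 CPM in the duodenum (mean ± SD, n = 3 at each age). At week 2 the sums of the ileum samples were 4810, 5162 and 5754 CPM, and at week 3 they were 9968, 12309 and 9526 CPM, without overlap.

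**Figure D2:**
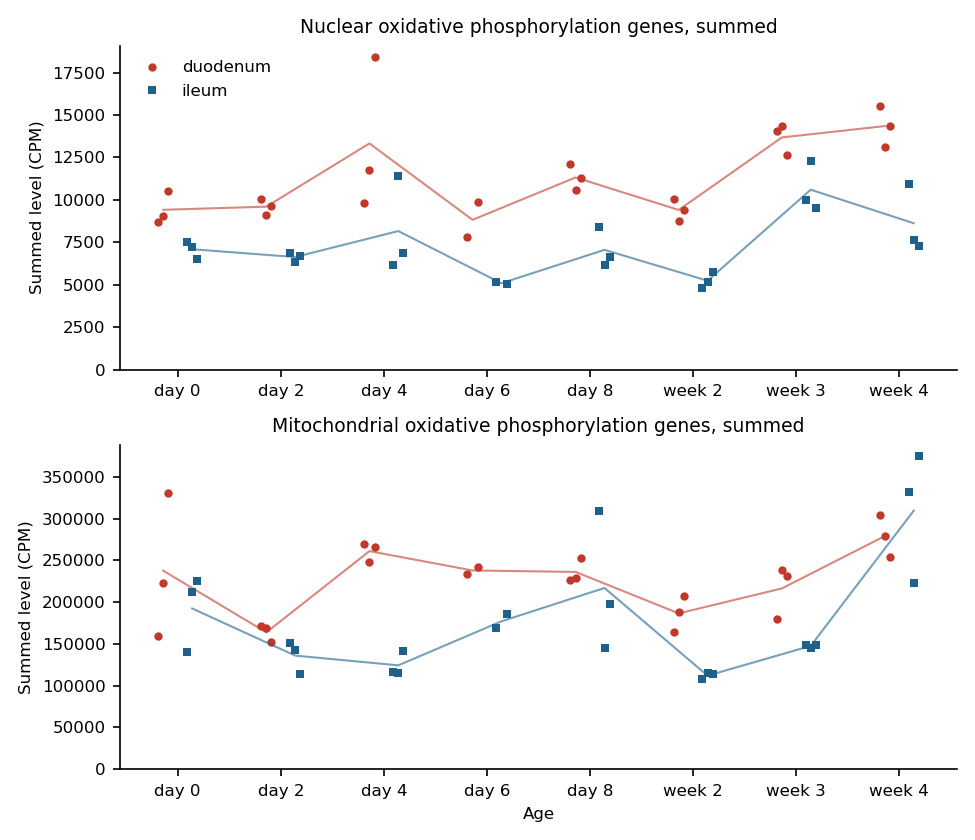
The summed level of 82 nuclear (top) and 13 mitochondrial genes (bottom), in CPM, is shown for each sample by age; lines join group means. Nuclear sums in the ileum lie at or below 5754 CPM at week 2 and at or above 9526 CPM at week 3, and mitochondrial sums there lie between 222498 and 374904 CPM at week 4.

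The rise took in each complex. In complex I, 28 of 38 nuclear genes rose in the ileum and 13 in the duodenum. Ndufb6, an accessory subunit of the membrane arm, showed 10.9, 13.6 and 16.3 CPM in the ileum at week 2 and 35.2, 42.4 and 34.5 CPM at week 3, a log2 change of 1.46 ± 0.24 (edgeR adjusted p = 6.88e-06). In the duodenum it changed by 0.86 ± 0.23 (adjusted p = 0.00681), from 25.5, 27.3 and 29.5 to 52.0, 48.7 and 48.3 CPM. Neither region's samples overlapped between the ages. In complex III all 8 genes rose in the ileum and 5 in the duodenum, led by Uqcrfs1 at 1.29 ± 0.20 (adjusted p = 3.38e-06) and 0.78 ± 0.20 (adjusted p = 0.00367).

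In complex IV, 11 of 13 tested genes rose in the ileum and 8 in the duodenum. Cox5a, a subunit on the matrix side, went from 55.5, 69.3 and 75.0 CPM to 178, 224 and 179 CPM in the ileum and from 107, 94.8 and 109 CPM to 221, 229 and 189 CPM in the duodenum. The week 3 samples were all higher, by 1.54 ± 0.20 (log2, edgeR adjusted p = 6.98e-08) and 1.05 ± 0.19 (adjusted p = 8.47e-05). In complex V, 17 of 18 genes rose in the ileum and 7 in the duodenum. Among them Atp5g1, one of the genes for the proton-carrying c subunit, rose by 1.32 ± 0.24 (adjusted p = 3.65e-05) and 0.84 ± 0.24 (adjusted p = 0.00896). The genes whose promoters are printed above rose in the ileum by 1.01 (Ndufa11), 1.26 (Cox6a1), 1.20 (Atp5k) and 1.18 (Atp5g3). The other members with the NRF1 palindrome, Uqcrc1 and Atp5g2, changed by 1.03 and 0.48. Ndufb4, the other with ERR letters, changed by 0.44. Over members with and without each motif, the median changes there were 1.03 and 0.93 for NRF1, 0.95 and 0.95 for YY1, 0.88 and 0.99 for ETS, and 0.81 and 0.95 for ERR. These medians were not tested, and their order differed between motifs.

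**Figure D3:**
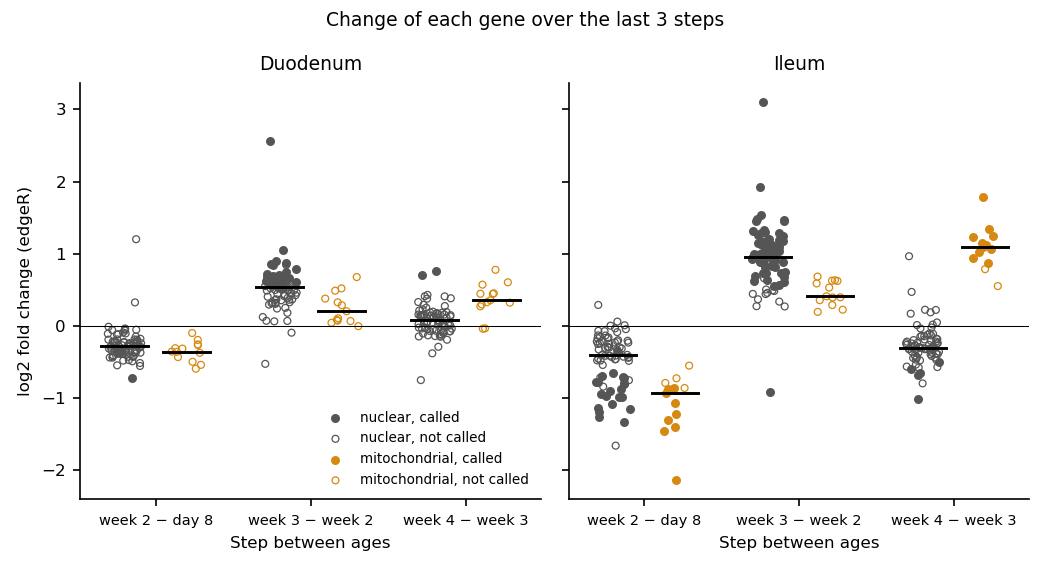
Each point is the log2 fold change of one gene over one step between ages, from edgeR, in the duodenum (left) and ileum (right). Filled points were called, and black bars are medians; Cox4i2 is counted but not drawn. Between week 2 and week 3, 64 of 77 nuclear genes rose in the ileum and 33 in the duodenum, and between week 3 and week 4, 11 of 13 mitochondrial genes rose in the ileum, where the nuclear median is -0.30.

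No mitochondrial gene was called over the same span in either region by edgeR. In the ileum all 13 changes were positive, with a median log2 change of 0.41, an unadjusted p under 0.05 for 3 genes and 3 calls by DESeq2. In the duodenum 12 of 13 were positive, with a median of 0.20, 1 gene under an unadjusted p of 0.05 and none by DESeq2. The nuclear rise was larger in the ileum for 75 of 77 genes, with a median difference between regions of 0.43. No member passed the test of that difference in edgeR or DESeq2, where 1.38% of all genes were called by edgeR, and 11 nuclear genes had an unadjusted p under 0.05. The count of 33 in the duodenum was 6 without week 2 sample 2, 13 without week 3 sample 1, 15 without week 2 sample 3 and 16 without week 3 sample 2. The ileal count of 65 stayed between 57 and 66 as single libraries were left out.

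Genes of other lists moved over this span too. Enterocyte markers rose in 4 and fell in 1 of 8 in both regions, with medians of 0.65 in the ileum and 0.47 in the duodenum. Their part in the nuclear rise was not tested. Genes of complex II and of the TCA cycle moved in the same direction. All 4 genes of complex II (succinate dehydrogenase) rose in the ileum (median 0.85) and none was called in the duodenum (median 0.42). Of 18 genes of the TCA cycle 13 rose in the ileum and 7 in the duodenum, among them Mdh2 (1.92 ± 0.25 and 1.24 ± 0.24) and Cs, citrate synthase (1.44 ± 0.20 and 1.32 ± 0.20). Glycolysis genes rose in 12 of 17 and 11 of 17. Of 12 regulators of mitochondrial biogenesis 3 rose in the ileum, led by Ppargc1a at 1.61 ± 0.30 (adjusted p = 5.4e-05). Mitochondrial ribosomal proteins rose in 21 of 78 in the ileum and 7 of 78 in the duodenum, where 12.9% and 7.7% of all genes rose. Other lists were mixed in the ileum. Of 49 assembly factors 15 rose and 4 fell, and of 7 other parts of the respiratory chain 4 rose and 2 fell. Of 29 tested genes of mitochondrial transcription, replication and RNA handling 3 rose and 1 fell.

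Cox7a1 had the largest rise of any member tested in both regions. It encodes the heart and muscle form of complex IV subunit VIIa, and it is also prominent in brown fat. Duodenum samples of week 2 held 3.26, 3.30 and 4.27 CPM, those of week 3 held 19.6, 21.5 and 22.9 CPM and those of week 4 held 33.9, 37.3 and 37.5 CPM. Ileum samples held 2.42, 2.25 and 2.98 CPM, then 12.0, 27.2 and 26.5 CPM, then 30.6, 11.2 and 19.2 CPM at the same ages. All later samples were above all week 2 samples, and the ileal samples of week 3 and week 4 overlapped each other. The rise between week 2 and week 3 was 3.10 ± 0.29 in the ileum (edgeR adjusted p = 7.17e-11) and 2.56 ± 0.28 in the duodenum (adjusted p = 5.54e-09). The widely expressed form Cox7a2 rose by 1.46 ± 0.22 in the ileum (adjusted p = 1.32e-06) and by 0.72 ± 0.21 in the duodenum (adjusted p = 0.0139). Per exon length, Cox7a1 was 6.08% ± 0.76 of the Cox7a1 and Cox7a2 level at week 2 and 25.8% ± 2.72 at week 4 of the duodenum (SD, n = 3), and for the ileum these were 7.77% ± 0.70 and 21.9% ± 7.03. Ucp1, which defines brown fat, was at or below 0.120 CPM in every sample. Of 7 brown adipocyte markers 2 passed the filter, and both were called higher in the ileum over this span. They changed by 1.61 and 3.10. The smaller value is that of Ppargc1a, counted above among the regulators of mitochondrial biogenesis, and the larger is that of Cox7a1 itself. Of 13 striated muscle markers 6 passed the filter. Of these, 1 was called over this span in the ileum, as higher, and none in the duodenum. The part of these cell types in the rise of Cox7a1 was not tested.

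**Figure D4:**
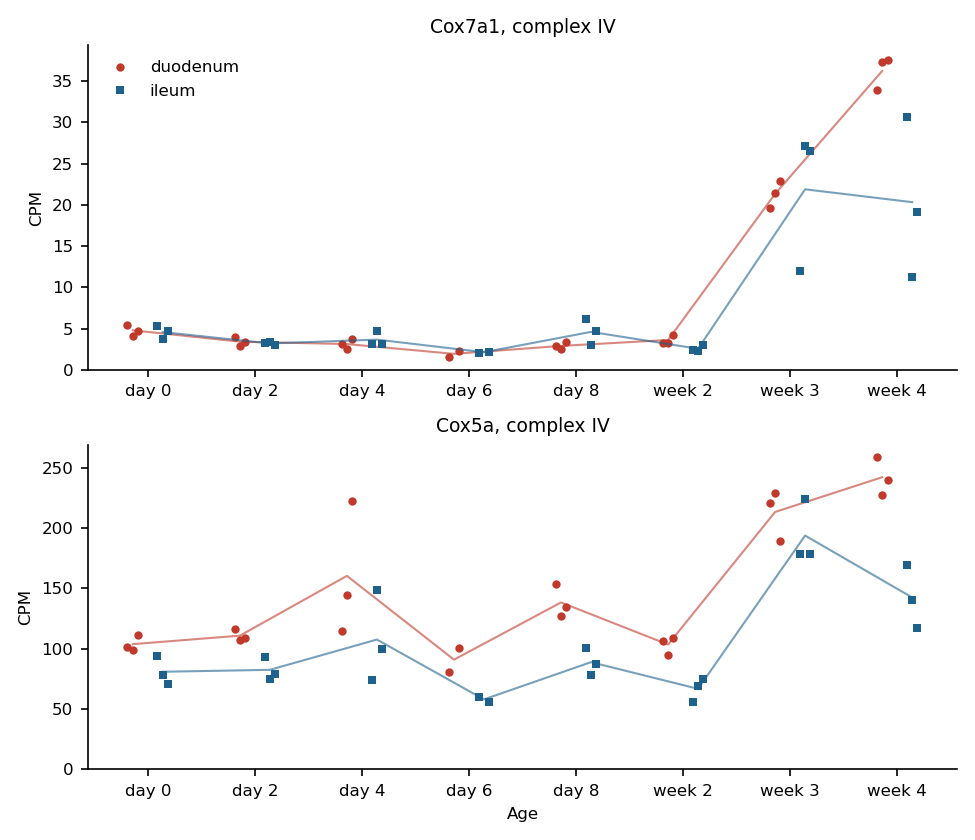
Levels in CPM are shown by age for Cox7a1 (top) and Cox5a (bottom), one point per sample, with lines joining group means. Cox7a1 stays at or below 6.16 CPM to week 2 and is between 11.2 and 37.5 CPM from week 3, and Cox5a rises in both regions between week 2 and week 3.

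Of the 3 genes for the c subunit of ATP synthase, whose proteins are identical once imported, Atp5g3 gave most of the message. Per exon length it made up between 78.2% and 86.8% of the group means of the 3 genes in all 16 groups, Atp5g1 between 6.64% and 10.4% and Atp5g2 between 3.52% and 15.2%. The Atp5g2 share was 10.3% ± 7.93 in the duodenum at day 0 (SD, n = 3), so its spread within groups could be wide. The muscle forms Cox6a2 and Cox8b stood at or below 0.250 CPM, beside Cox6a1 and Cox8a, which were tested.

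In the ileum the mitochondrial genes rose between week 3 and week 4. Of these genes 11 of 13 rose, with a median log2 change of 1.09, where 16.1% of all genes were called and 8.26% rose. No nuclear gene rose, and 6 fell, where 7.81% of all genes fell, so the share of nuclear genes that fell lay near the background. The median over the 77 was -0.30. Those that fell were Atp5g1 (-1.02), Uqcrq (-0.68), Ndufa10 (-0.65), Ndufa4 (-0.60), Ndufb3 (-0.49) and Cox4i2, which is near 0 CPM; Uqcrq and Ndufa4 are named because they complete the count. The summed mitochondrial level was 148894, 144763 and 148810 CPM in the week 3 samples and 331261, 222498 and 374904 CPM in those of week 4, so each week 4 sample lay above each week 3 sample. In the duodenum the mitochondrial sum was 216300 ± 31401 CPM at week 3 and 279100 ± 25548 CPM at week 4 (mean ± SD, n = 3), and no mitochondrial gene was called by edgeR or DESeq2, with 3 at an unadjusted p under 0.05. There 2 nuclear genes, Cox6a1 and Cox7a1, rose, where 12.7% of all genes were called, and leaving out single libraries left 0 or 1 call.

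Among single genes, mt-Co1, the catalytic subunit of complex IV, rose by 1.06 ± 0.22 (edgeR adjusted p = 0.000511), from 45243, 41331 and 37572 CPM to 94326, 67097 and 97438 CPM. Cytochrome b of complex III, mt-Cytb, rose by 1.15 ± 0.24 (adjusted p = 0.000494), from 11231, 11341 and 11984 CPM to 27569, 17955 and 31375 CPM. For complex V, mt-Atp6 rose by 1.25 ± 0.29 (adjusted p = 0.00181) and mt-Atp8 by 1.24 ± 0.32 (adjusted p = 0.00592). In each of these genes the samples of the ages did not overlap. In complex I, mt-Nd3 had the largest change, 1.78 ± 0.48 (adjusted p = 0.00737), and mt-Nd1 (0.55 ± 0.22, adjusted p = 0.086) and mt-Nd6 (0.79 ± 0.31, adjusted p = 0.0855) were the 2 genes that did not pass. mt-Nd6 is the one member on the other strand of mitochondrial DNA. The mitochondrial rRNA genes mt-Rnr1 and mt-Rnr2 rose as well, by 1.75 ± 0.25 (adjusted p = 1.57e-06) and 1.04 ± 0.25 (adjusted p = 0.00293).

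**Figure D5:**
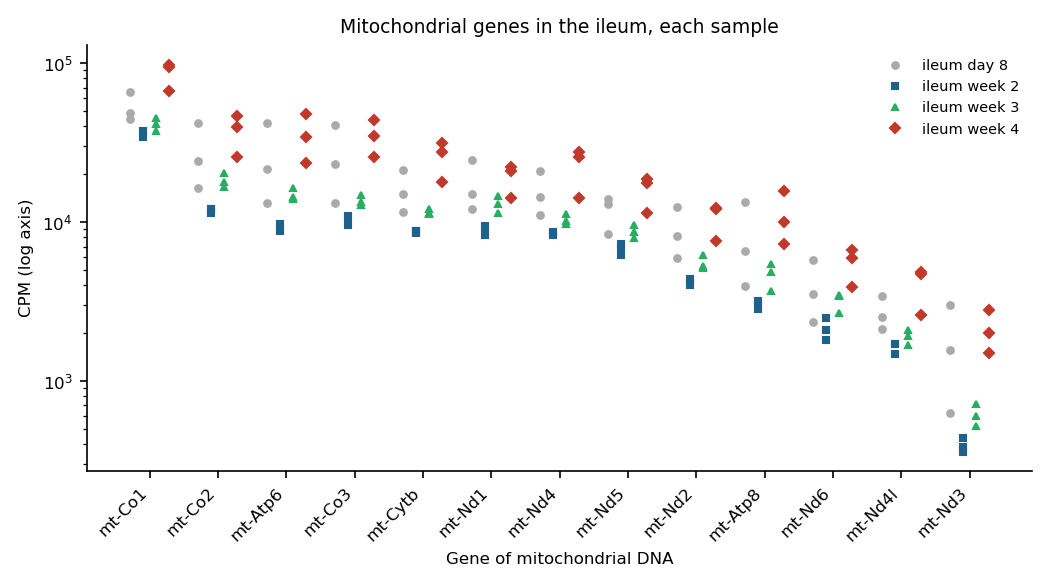
The 13 mitochondrial genes are shown in the ileum at day 8 and week 2, 3 and 4, each point a sample, on a log axis of CPM, ordered by mean level. Week 2 samples lie low and close together, and week 4 samples lie above week 3 samples for 12 of the 13 genes, as for 12.7% of all genes tested.

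Library by library, the number of mitochondrial genes that rose in the ileum at week 4 stayed between 8 and 12. The nuclear count of 6 was 22 without ileum week 4 sample 1, whose ileum markers were low and whose nuclear sum was 10950 CPM beside 7644 and 7284 CPM, and 1 to 3 without week 3 sample 2 (1), week 4 sample 2 (1) or week 4 sample 3 (3). Of 8 goblet and Paneth cell markers 5 rose over this step and none fell. Of 7 immune cell markers 5 rose and 1 fell. The immune sums were 43.4, 58.7 and 51.0 CPM in the week 3 samples and 271, 538 and 599 CPM in those of week 4. Of 8 enterocyte markers 1 rose and 2 fell (median -0.35). Their part in the mitochondrial rise was not tested.

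Copies of mitochondrial DNA in the nuclear genome limit what can be said of single mitochondrial genes. In the GENCODE transcripts, the copy Gm28438 matched mt-Nd3 over 345 bases at 99.7% identity, and it held a mean of 1264 CPM beside 1034 CPM of mt-Nd3. The copy Gm29216 matched mt-Co1 over 483 bases at 99.8%, with 1766 CPM beside 58747 CPM. Gm28439 matched mt-Nd4 over 876 bases at 100%, with 523 CPM beside 15198 CPM. Copies of mt-Co3, mt-Co2 and mt-Atp6 also matched at 100%, and held 31.4, 0.272 and 0.0565 CPM. In estimated counts, reads that fit both genes of such a pair are divided between them, so the level of mt-Nd3 is uncertain. The 6 copies together took between 1.08% and 3.56% of the counts of mitochondrial members and copies. Mitochondrial neighbours also share bases: mt-Atp8 and mt-Atp6 overlap by 43 bases at chrM:7927-7969 (mm10, GRCm38), on the same strand, printed here because the pair shares a message and holds the only members called in the test of age courses between regions.
Shared by mt-Atp8 and mt-Atp6: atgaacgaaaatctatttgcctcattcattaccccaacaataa

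Between day 8 and week 2, 21 of 77 nuclear genes and 9 of 13 mitochondrial genes fell in the ileum and none rose, where 6.64% of all genes were called and 2.47% fell. The medians were -0.40 and -0.93. Complex I gave 11 of the nuclear calls, among them Ndufa5 (-1.19 ± 0.21, edgeR adjusted p = 0.00127), complex V gave 5, complex IV gave 4 and complex III gave 1, Uqcrb (-1.08 ± 0.20, adjusted p = 0.00133). In the duodenum 2 nuclear genes and no mitochondrial gene were called over this span, with medians of -0.28 and -0.36, where 15.7% of all genes were called. The ileal calls turned on 1 library: without ileum day 8 sample 1, whose mitochondrial sum was 308777 CPM beside 144731 and 197123 CPM, no member was called. Without ileum week 2 sample 1 or 2 the nuclear count was 9 or 13.

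Over the whole span from day 0 to week 4, 55 of 77 nuclear genes rose in the duodenum and none fell, where 40.5% of all genes were called and 20.4% rose. In the ileum 15 rose and 3 fell, where 41.9% were called and 21.5% rose, so the ileal share of risers lay near the background. The median changes were 0.59 (duodenum) and 0.25 (ileum). The nuclear count in the duodenum was 32 without day 0 sample 1 or week 4 sample 1 and 35 without day 0 sample 2. In the ileum the count of 18 was 11 without day 0 sample 3, and the median was -0.02 without week 4 sample 1. The largest duodenal changes after Cox7a1 (2.92 ± 0.29) were Cox5a (1.22 ± 0.19, edgeR adjusted p = 2.68e-06), Atp5j2, the f subunit of ATP synthase (1.17 ± 0.21, adjusted p = 1.65e-05), Cox6a1 (1.14 ± 0.24, adjusted p = 0.000227) and Ndufa1 (1.06 ± 0.17, adjusted p = 3.36e-06). Ndufa1 rose in the ileum too, by 0.85 ± 0.17 (adjusted p = 0.000105), from 19.6, 18.0 and 15.2 CPM to 41.5, 26.3 and 27.2 CPM.

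Of the mitochondrial genes 7 rose in the ileum over this span, with a median of 0.73, and 1, mt-Co3, in the duodenum, with a median of 0.17. The ileal count was 0 without week 4 sample 3, 1 without day 0 sample 1 and 4 without week 4 sample 1, and mt-Co3 in the duodenum was not called without day 0 sample 1 or 2 or week 4 sample 1. Without duodenum day 0 sample 3, whose mitochondrial sum was 330769 CPM beside 159201 and 222753 CPM, 3 were called. The difference between the regions' changes passed for no member in edgeR or DESeq2, where 5.99% of all genes were called by edgeR, with an unadjusted p under 0.05 for 12 nuclear genes and 1 mitochondrial gene. Of 78 mitochondrial ribosomal proteins, which translate the mitochondrial messages, 38 rose in the duodenum and none fell, where 20.4% of all genes rose. In the ileum none rose and 11 fell, where 4494 of all 21986 genes fell. The share of these proteins that fell in the ileum thus lay below that of all genes.

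Between day 0 and day 8, 16 nuclear genes rose and 1 fell in the duodenum, where 41.2% of all genes were called and 22% rose, and 10 rose and 1 fell in the ileum, where 19.3% were called. No mitochondrial gene was called in either region by edgeR or DESeq2, and an unadjusted p under 0.05 was found for 1 ileal gene and no duodenal gene. The duodenal nuclear count fell to 2 without day 8 sample 1, 3 without day 0 sample 1 or 2, and 9 or 11 without day 8 sample 3 or 2. In the ileum it fell to 2 without day 8 sample 1, 5 or 6 without day 0 sample 3 or 2, and 7 without day 8 sample 3. Without ileum day 8 sample 2, 4 mitochondrial genes were called.

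Whether the age courses differed between regions was tested over all 8 ages. No nuclear gene passed in edgeR, where 22.4% of all genes were called, with 6 under an unadjusted p of 0.05 and 5 called by DESeq2. Among the mitochondrial genes mt-Atp6 (edgeR adjusted p = 0.0259) and mt-Atp8 (adjusted p = 0.0337) passed, with 8 under an unadjusted p of 0.05 and 8 called by DESeq2. With single libraries left out, between 1 and 10 members were called, the most without ileum day 8 sample 2. The ileal week 2 samples held 8796, 9275 and 9722 CPM of mt-Atp6 and the week 4 samples 34431, 23620 and 47953 CPM. The duodenal week 2 samples held 14328, 18329 and 19691 CPM and the week 4 samples 33404, 26577 and 23631 CPM. Neither region overlapped between these ages. The age effect itself was called for 66 of 77 nuclear and 5 of 13 mitochondrial genes in the duodenum, where 67.4% of all genes were called, and for 65 of 77 and 13 of 13 in the ileum, where 58.7% were called.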

How the data were processed

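The authors' deposited table of estimated counts per gene (expected counts, whole numbers, summarised with tximport per the name of the table) gave all tests. The deposited normalized signal, which is each estimated count divided by 1 factor per sample by the authors, served only for gene names. The submitters' processing notes list STAR 2.6.1d, Salmon 0.14.2, DESeq2 1.30.1 and build mm10, with no role or order, and the annotation release is not given in the sources used here.

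From these counts, R 4.3.3 and edgeR 4.0.16 (TMM scaling, filterByExpr, robust quasi-likelihood fit) were run on 46 samples with 16 group means and 24 tests, and p-values were adjusted by Benjamini-Hochberg over 21986 genes. A gene was called at an adjusted p under 0.05. DESeq2 1.42.0, other scalings and filters, all 48 samples, no day 4, a replicate block and 46 fits that left out 1 sample each were the alternatives. The samples' depth was 16824021 to 65042327 counts. Low counts are the least precise.

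The members, gene lists and tests were chosen with earlier results of these data known. Genes with values are the mitochondrial genes, isoform families, the 2 called genes of each complex with the largest change (week 4 against day 0, week 3 against week 2, and between regions), the 4 with the smallest interaction p, and genes of other lists. Ndufa11, Ndufa4, Ndufb4 and Uqcrq fall outside that rule, and which comparison a gene was shown for beyond it was chosen after values were seen. Ndufa4, by its name, is counted in complex I, although it is known as a subunit of complex IV. Nothing in the labels says that samples came from separate animals, so p-values measure only the spread between these samples. On simulated counts for 20605 genes, the procedure recovered 55% of 2-fold and 96% of 4-fold changes between week 2 and week 3 of the ileum, with 3.21% of its calls false. The simulation changed 100 genes 2-fold and 100 genes 4-fold. All other genes had the same mean in all groups, and no litter or sample effect was set, so these rates need not hold for the real data. Exon lengths and copies came from GENCODE M21 transcripts.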

Additional observations from a re-analysis of the deposited data

Results flagged for a closer look

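The age courses of 2 mitochondrial genes of complex V differed between the duodenum and the ileum by the test of the interaction itself, mt-Atp6 with an edgeR adjusted p of 0.0259 and mt-Atp8 with 0.0337. The genes overlap by 43 bases and their reads are partly shared, so they are not independent observations. With all 48 samples neither passed. In this test 22.4% of all genes were called, against 2 of the 90 members tested, so the members were called less often than genes at large.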

How the results depend on the processing

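Counts of called members, nuclear and mitochondrial together, moved by over 1.5 times under some settings, and the cause was not tested. With all 48 samples, day 0 to day 8 gave 8 in place of 17 in the duodenum and 6 in place of 11 in the ileum, day 8 to week 2 gave 0 in place of 2 and 19 in place of 30, week 2 to week 3 in the duodenum 17 in place of 33, and week 3 to week 4 there 0 in place of 2. Between regions they gave 1 in place of 3 at day 0, 12 in place of 24 at day 2, 0 in place of 52 at day 6 and 0 in place of 13 at week 3, and 0 in place of 2 for the interaction. Without day 4 these counts were 27, 18, 15 (duodenum, day 8 to week 2), 57, 1, 20, 46, 51 (week 3) and 16 for the interaction, 28 in place of 17 for ileum week 3 to week 4, and 6 in place of 0 for the difference between regions from day 0 to week 4. DESeq2 gave 11 for day 0 to day 8 in the duodenum, 9 between regions at day 0 and 13 for the interaction, and size factors of the RLE kind gave 10 for the first. Without a low-count filter the duodenum gave 0 for day 8 to week 2 and for week 3 to week 4, and the regions 1 at day 0.

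The labels share replicate numbers across groups, and do not say whether same-numbered duodenum and ileum samples came from one animal. The deviations of such samples correlated at r over 0.1 in 16 of 23 pairs, from -0.36 to 0.67. The mean was 0.16, and for differently numbered samples of one age it was -0.08. Deviations from a group mean cancel within the group, so the second mean is tied to the first and is no separate reference. The numbers were not taken as pairs, and the tests between regions treated all samples as independent. With a replicate block, week 3 to week 4 in the duodenum gave 0 in place of 2 and day 0 between regions 6 in place of 3, and no other count moved by over 1.5 times. Leaving out single samples gave ranges of 2 to 16 (day 0 to day 8, duodenum) and 2 to 19 (ileum), 0 to 1 and 0 to 36 (day 8 to week 2), 6 to 28 (week 2 to week 3, duodenum), 0 to 1 and 11 to 32 (week 3 to week 4), 32 to 66 and 15 to 29 (day 0 to week 4), 0 to 3 for the difference of the last, and 1 to 10 for the interaction. Between regions they were 0 to 4 at day 0, 5 to 16 at day 2, 27 to 82 at day 4, 15 to 53 at day 6 and 0 to 8 at week 3. The log2 ratio of the summed nuclear level of week 4 to week 3 in the duodenum was 0.07 in CPM, -0.16 as a share of all counts and -0.12 per counts of genes not on mitochondrial DNA. Of 3850 values of named members under alternatives, 3583 kept their direction and side of the threshold, 260 kept the direction but no longer passed and 6 newly passed. The 1 that reversed was the value of Cox7a1, ileum against duodenum, mean of 8 ages, which did not pass and ran from -0.11 to 0.00105 as single samples were left out.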
